A study of Mus musculus with 2 samples.

Results

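Malat1, Neat1, H19, Meg3, Gas5, Snhg1, Snhg3 and Snhg5 are genes whose RNAs are not known to act through a protein product, and they were chosen by symbol, 8 genes of 35129 in the deposited tables. The tables list 7 of them under these symbols. Snhg5 has no row of its own, and its values were taken from the row 2810026P18Rik, which RefSeq gives as an older symbol of Snhg5 alone. Transcripts had been measured by RNA sequencing in hepatocytes isolated from C57BL/6 mice and infected in culture with an adenovirus labelled KLF14 (Ad-KLF14), which carries this zinc finger transcription factor, or with a GFP-labelled adenovirus as the control (Ad-GFP). The question is which RNA levels change with expression of KLF14. There is 1 table per group, taken as 1 library. No test between groups could therefore be made, and differences describe these 2 libraries. No label gives the age of the mice, the dose of virus, the time after infection or whether cultures were pooled.

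Snhg1, Snhg3, Snhg5 and Gas5 are hosts of small nucleolar RNAs (snoRNAs): the introns of their transcripts are cut down to snoRNAs, which guide the chemical modification or the cleavage of ribosomal RNA, while the spliced exons are in several cases removed by nonsense-mediated decay on ribosomes. Malat1 stays in the nucleus at splicing speckles and ends in a triple helix instead of a poly(A) tail, and Neat1 builds paraspeckles, with a short polyadenylated form and a long form that is not. H19 and Meg3 are imprinted and expressed from the maternal chromosome, are abundant in fetal tissues, and are turned down in the liver after birth.

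Values are FPKM (reads per 1000 bases of a gene and per 1000000 reads of the library), so levels of genes can be set side by side. The gene lengths behind them are not given, and capture may differ between RNAs with and without a poly(A) tail. Library totals recovered from the steps of the values were 11151711 reads for Ad-KLF14 and 11311344 reads for Ad-GFP, and reads per gene are lower limits because the smallest whole numbers that fit were taken, so that intervals of ratios may be too wide. Klf14 itself was at 13164 FPKM with Ad-KLF14 and at 0.298 FPKM with Ad-GFP. All 10 hepatocyte markers averaged 1 FPKM or more. Their summed level was 5454 FPKM with Ad-KLF14 and 6623 FPKM with Ad-GFP, most of it Alb (4172 against 5115 FPKM). Cps1 had the lowest mean level, at 2.80 against 4.91 FPKM. On log2(FPKM + 1) 4 of the 10 were above 0 and 6 below, with a median of −0.10, and none was 2-fold apart. Some markers of other cells were at least 2-fold apart. Of 6 bile duct markers 2 were at least 2-fold lower, with a summed level of 235 FPKM under Ad-KLF14 and 795 FPKM under Ad-GFP, most of it Spp1, and Krt7 was at 0 in both. Of 6 macrophage markers Cd68 was at least 2-fold higher (160 against 71.1 FPKM) and Mpeg1 at least 2-fold lower (17.1 against 40.1 FPKM). The 6 summed to 188 FPKM under Ad-KLF14 and 120 FPKM under Ad-GFP, most of it Cd68, so the higher sum rests on this gene. Of the 5 averaging 1 FPKM or more, 3 were above 0 and 2 below on log2(FPKM + 1). The 6 endothelial markers summed to 6.93 FPKM under Ad-KLF14 and 8.47 FPKM under Ad-GFP, with Oit3 at least 2-fold lower (0.990 against 3.87 FPKM), and no stellate cell, fibroblast, lymphocyte or neutrophil marker had a mean of 1 FPKM. The design text of the series also names retina. Of 6 retina markers Gnat1 was at 4.75 against 0.881 FPKM (117 against 22 reads, ratio 5.39), Rcvrn and Crx were at 0 in both, and the other 3 were under 1 FPKM. Whether such cells contribute to the RNAs described here was not tested, and fewer cells of a type cannot be told apart from less RNA per cell.

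Averaged over both libraries, 6 of the 8 noncoding RNAs reached 1 FPKM, while H19 and Meg3 did not. The order of their levels was the same in both libraries, with Snhg1 highest, then Gas5, Snhg5, Malat1, Snhg3 and Neat1. Snhg1 was at 80.2 times the level of Neat1 with Ad-KLF14 and at 26.3 times with Ad-GFP, and ranked 203 of 12419 genes by its mean level. Gas5 ranked 2012, Snhg5 2474, Malat1 3150, Snhg3 5617 and Neat1 8717. Malat1 and the long form of Neat1 lack a poly(A) tail, and how far capture bears on their place in this order was not tested. In the Ad-GFP library the levels of Snhg5 (28.3 FPKM, 95% Poisson interval 25.3 to 31.6) and Malat1 (27.0 FPKM, upper bound 29.0) had overlapping intervals. All intervals cover counting error only and not the spread between cultures.

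**Figure D1:**
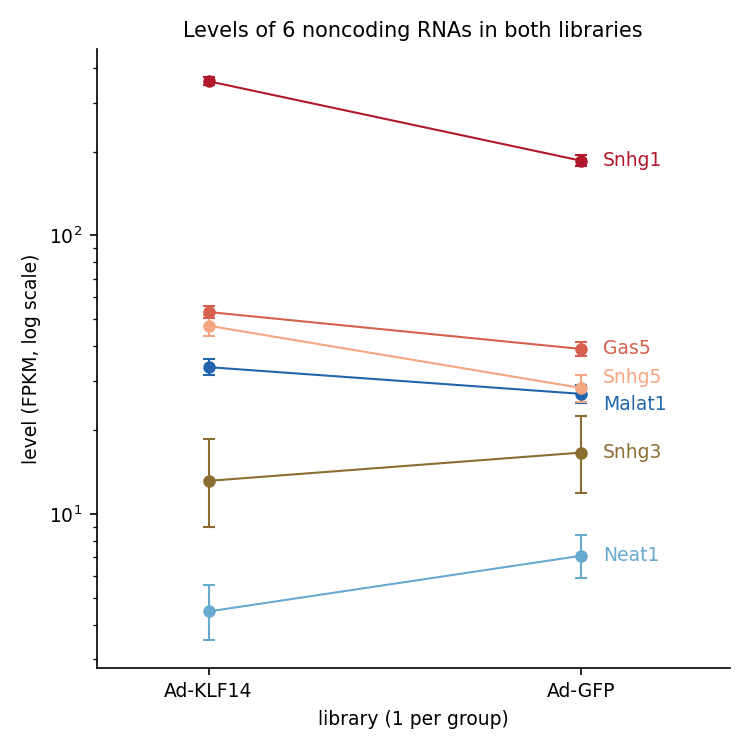
Level in FPKM on a log scale (vertical) of 6 noncoding RNAs in the Ad-KLF14 library (left) and the Ad-GFP library (right), each point 1 value with its exact 95% Poisson interval. Snhg1 lies at 358 FPKM on the left and 186 FPKM on the right, above the other genes in both, and Neat1 lies lowest at 4.46 and 7.07 FPKM.

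Snhg1 showed the largest difference among the snoRNA hosts of the set. Its level was 358 FPKM with Ad-KLF14 (at least 3799 reads) and 186 FPKM with Ad-GFP (at least 1998 reads). The ratio was 1.93 (95% Clopper-Pearson counting interval 1.83 to 2.04), and 92.6% of the genes kept had a smaller log2 ratio. With the values scaled to an equal sum without Klf14, the log2 ratio was 1.04 instead of 0.94, so Snhg1 then passed 2-fold. Under that scaling 9.53% of all genes kept were at least 2-fold higher, beside 6.37% as reported. The promoter window of Snhg1 is shown because the gene beside it, Slc3a2, the heavy chain of amino acid transporters, starts inside this window on the opposite strand and differed the other way. Slc3a2 was at 94.0 FPKM with Ad-KLF14 and 159 FPKM with Ad-GFP, 1.69-fold lower (ratio 0.591, interval 0.565 to 0.619). On the other side, Wdr74, a protein of ribosome assembly, was at 94.5 against 63.1 FPKM (log2 difference 0.58, interval of the ratio 1.37 to 1.64). The window, from RefSeq on build GRCm38.p6 (chr19:8723237-8723536, plus strand), runs from 250 bases before the annotated start to 50 bases after it, with a GC box (GGGCGG) and a TATA motif (TATAAA, read on the other strand) in capitals.
Snhg1: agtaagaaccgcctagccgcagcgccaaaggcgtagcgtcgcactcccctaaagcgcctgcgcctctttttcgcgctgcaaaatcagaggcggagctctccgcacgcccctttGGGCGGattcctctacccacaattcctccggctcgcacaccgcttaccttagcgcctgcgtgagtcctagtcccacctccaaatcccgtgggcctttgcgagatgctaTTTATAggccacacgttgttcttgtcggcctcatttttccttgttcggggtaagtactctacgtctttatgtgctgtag

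Snhg5 came next. It was at 47.4 FPKM with Ad-KLF14, from at least 531 reads, and at 28.3 FPKM with Ad-GFP, from at least 322 reads, a ratio of 1.67 (interval 1.45 to 1.93). The nearest protein-coding gene on one side, Syncrip, an RNA-binding protein of the hnRNP group, was at 25.1 against 30.3 FPKM (ratio 0.828, interval 0.631 to 1.08), and the gene on the other side, Trim43a, was at 0.147 against 0.0482 FPKM. The interval of Snhg5 thus lay above 1, and that of Syncrip held 1. Its RefSeq window (chr9:88522848-88523147, minus strand, GRCm38.p6) holds 2 overlapping GC boxes and a TATA motif, again in capitals.
Snhg5: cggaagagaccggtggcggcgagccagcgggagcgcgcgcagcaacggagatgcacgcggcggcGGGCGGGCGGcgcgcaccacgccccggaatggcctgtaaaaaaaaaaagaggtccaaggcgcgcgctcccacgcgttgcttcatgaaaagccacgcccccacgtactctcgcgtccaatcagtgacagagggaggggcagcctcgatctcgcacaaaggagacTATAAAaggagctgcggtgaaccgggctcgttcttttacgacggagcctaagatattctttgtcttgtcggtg

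Gas5, named for its accumulation in growth-arrested cells, stood at 53.1 FPKM with Ad-KLF14 and 39.1 FPKM with Ad-GFP, from 1511.5 and 1129.5 reads. These are the fitted numbers divided by 2, since undivided they imply a gene longer than any annotated transcript. The ratio was 1.36 (interval 1.26 to 1.47). Zbtb37, a zinc finger gene that overlaps the start of Gas5 on the other strand, was at 2.49 against 1.39 FPKM (ratio 1.80, interval 1.30 to 2.50). Serpinc1, which encodes antithrombin, was at 42.7 against 43.8 FPKM. No label says whether counting used the strand, so reads where Gas5 and Zbtb37 overlap could count for either.

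Snhg3 was the host with a lower value. It was at 13.1 FPKM with Ad-KLF14, from at least 32 reads, and 16.6 FPKM with Ad-GFP, from at least 41 reads. The ratio was 0.792, and its interval of 0.483 to 1.29 held 1. These reads imply a gene of only 218.5 bases, so the true reads may be a multiple of them and the interval narrower. Rcc1, the nucleotide exchange factor of Ran, overlaps Snhg3 on the same strand in the annotation and was at 18.6 against 22.1 FPKM (ratio 0.841, interval 0.741 to 0.954), and reads of both genes may have been shared. The next genes were lower too, Phactr4 at 15.3 against 20.8 FPKM (ratio 0.737) and Trnau1ap, which binds selenocysteine tRNA, at 24.4 against 48.9 FPKM (log2 difference −0.97, interval of the ratio 0.435 to 0.574).

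**Figure D2:**
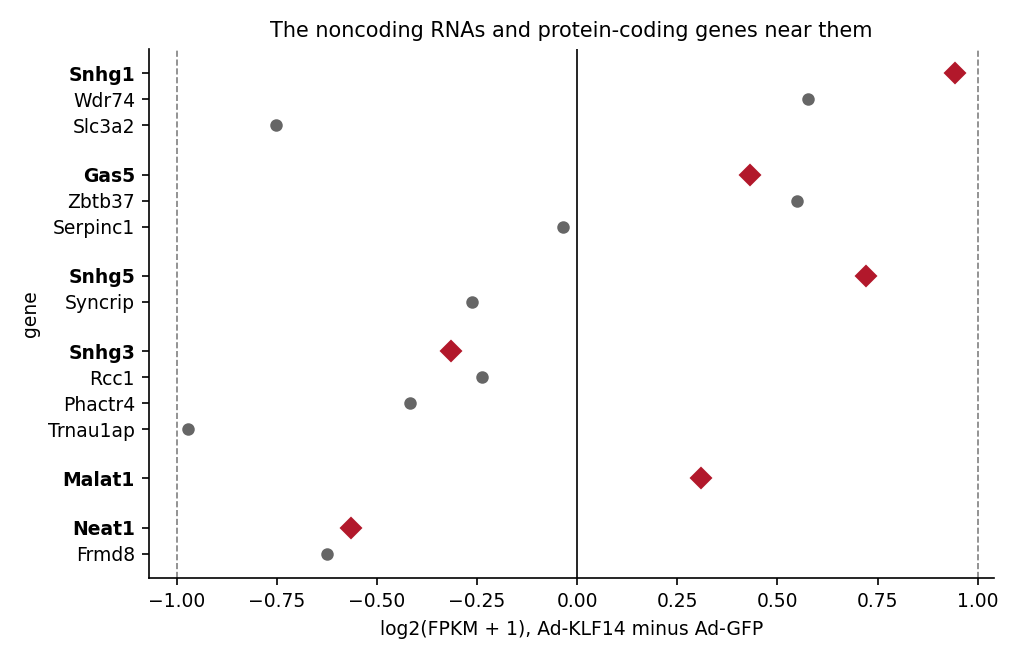
Difference in log2(FPKM + 1), Ad-KLF14 minus Ad-GFP (horizontal), for 6 noncoding RNAs (red diamonds, bold names) and overlapping or nearby protein-coding genes averaging 1 FPKM or more (grey points below each, where given). Snhg1 at 0.94 and Slc3a2 at −0.75 lie on opposite sides of 0, and the dashed lines mark 2-fold.

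Host RNAs of this kind often begin with a run of pyrimidines, the terminal oligopyrimidine (TOP) tract, which ties translation of an RNA to the growth signal mTOR. The bases from 25 before to 25 after the annotated starts are therefore shown, with the longest run of C or T in capitals, from RefSeq on build GRCm38.p6. The coordinates are chr19:8723462-8723511 (plus strand) for Snhg1, chr1:161034576-161034625 and chr1:161035141-161035190 (plus strand) for the 2 starts of Gas5, chr4:132353662-132353711 (minus strand) for Snhg3 and chr9:88522873-88522922 (minus strand) for Snhg5.
Snhg1: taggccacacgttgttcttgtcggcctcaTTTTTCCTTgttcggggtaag
Gas5, first start: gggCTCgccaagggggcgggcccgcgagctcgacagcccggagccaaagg
Gas5, second start: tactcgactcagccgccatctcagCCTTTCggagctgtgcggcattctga
Snhg3: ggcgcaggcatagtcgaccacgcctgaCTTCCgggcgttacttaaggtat
Snhg5: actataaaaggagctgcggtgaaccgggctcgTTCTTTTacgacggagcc
The run was 9 bases long in Snhg1, a length that 13.3% of 32817 promoter windows reach, 7 bases in Snhg5 (29.3%), 6 bases at the second start of Gas5 (43.9%), 5 bases in Snhg3 (64.7%) and 3 bases at the first start of Gas5 (96.3%). The runs began at base 5 of the annotated transcript in Snhg1, base 8 in Snhg5 and base 3 in Snhg3, counting the start as 1. None of these 3 thus began at the annotated start itself, where a TOP tract lies. At the second start of Gas5 the run began at base −1, just before the start, and ran across it. At the first start of Gas5 the run began at base −22 and ended before the start. GC boxes, which KLF and SP factors are known to bind, were present on either strand in 35.6% of all windows, and within the hosts were found 1 time in Snhg1, 2 times in Snhg5, 5 and 3 times in the windows of Gas5, and not in Snhg3. The motif CACCC was in 57.5% of all windows, and among the hosts only in the first window of Gas5, 2 times. TATAAA was in 13.6% of all windows and in those of Snhg1, Snhg3 and Snhg5. The window of Malat1 held none of these 3 motifs, and Meg3 had CACCC 4 and 7 times in its 2 windows and TATAAA 2 times in the first. RefSeq windows of H19 and Neat1 were not used.

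The small RNAs inside these hosts had few reads. Of the snoRNAs annotated in introns of the 4 hosts, 4 had a row in the tables. Snord22, in Snhg1, was at 16.7 FPKM with Ad-KLF14 and 12.6 FPKM with Ad-GFP, from at least 23.5 and 18 reads (ratio 1.32, interval 0.686 to 2.60). Snord47, in Gas5, was at 2.07 against 3.40 FPKM from at least 1.5 and 2.5 reads (interval of the ratio 0.0297 to 7.25). Snora73a and Snora73b, in Snhg3, had 8 against 11 reads (3.50 against 4.74 FPKM, ratio 0.738, interval 0.258 to 2.01) and 3 against 5 reads (1.31 against 2.16 FPKM, ratio 0.609, interval 0.0945 to 3.13). The ratios of Snord22, Snora73a and Snora73b lay on the same side of 1 as those of their hosts and that of Snord47 on the other side, and the intervals of all 4 held 1. Library kits of this kind capture few RNAs as short as snoRNAs, and reads of unspliced host RNA cannot be told apart from reads of the snoRNA. The sequences are printed to show why these rows are hard to count: the pair in Snhg3 is identical at 198 of 205 bases. They come from GENCODE M21 on build GRCm38, at chr19:8725866-8725991 (plus strand) for Snord22, chr1:161038082-161038158 (plus strand) for Snord47, chr4:132352775-132352979 (minus strand) for Snora73a and chr4:132352322-132352526 (minus strand) for Snora73b. Capitals mark the D box CTGA and, where the letters TGATGA occur, the C box of the C/D type, and the ACA box 3 bases before the end of the H/ACA type.
Snord22: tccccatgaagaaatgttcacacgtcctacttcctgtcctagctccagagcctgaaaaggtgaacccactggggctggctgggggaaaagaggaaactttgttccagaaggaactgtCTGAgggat
Snord47: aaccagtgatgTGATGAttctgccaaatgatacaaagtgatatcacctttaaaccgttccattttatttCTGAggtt
Snora73a: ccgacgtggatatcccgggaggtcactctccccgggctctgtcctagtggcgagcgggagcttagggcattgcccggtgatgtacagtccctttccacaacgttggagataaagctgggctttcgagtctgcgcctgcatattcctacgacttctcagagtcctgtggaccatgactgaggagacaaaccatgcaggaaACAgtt
Snora73b: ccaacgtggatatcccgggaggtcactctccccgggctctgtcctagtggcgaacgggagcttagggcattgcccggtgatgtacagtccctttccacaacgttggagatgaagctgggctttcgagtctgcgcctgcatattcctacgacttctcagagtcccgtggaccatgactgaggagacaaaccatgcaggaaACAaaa

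Malat1 and Neat1, which lie next to each other on chromosome 19, differed in opposite directions. Malat1 had a level of 33.6 FPKM with Ad-KLF14 (at least 873 reads) and 27.0 FPKM with Ad-GFP (at least 710 reads), a ratio of 1.25 (interval 1.13 to 1.38). Neat1 was at 4.46 FPKM with Ad-KLF14, from at least 79 reads, and 7.07 FPKM with Ad-GFP, from at least 127 reads, a ratio of 0.631 (interval 0.470 to 0.842), or 1.58-fold lower. Malat1 was thus at 7.54 times the level of Neat1 with Ad-KLF14 and at 3.82 times with Ad-GFP. The tables hold 1 value per gene, so the short and long forms of Neat1 were not told apart. The protein-coding gene Frmd8, next to Neat1, had a log2 difference of −0.62 (ratio 0.637, interval 0.554 to 0.732). The ratios of Neat1 and Frmd8 were thus both below 1, with intervals below 1.

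The proteins of the nuclear bodies where these RNAs lie were mostly near 0 on the log2 scale. Of 14 paraspeckle proteins none was 2-fold apart, 11 were above 0 and 3 below on the log2 scale, and the median log2 ratio was 0.05. The core proteins Nono and Sfpq, named after their values were seen, were at 145 against 139 FPKM and 141 against 119 FPKM. By the rule for named genes, the chromatin remodeller Smarca4 had a log2 ratio of 0.41, Rbm14 of 0.35 and Tardbp, which encodes TDP-43, of 0.35, while Taf15 stood at −0.33. Of 14 nuclear speckle proteins none was 2-fold apart either, with 4 above 0 and 10 below and a median of −0.05. That median turned positive when scaled to an equal sum, and was 0.04 without Klf14 in that sum. The median of all genes kept moved too, from −0.03 as reported to 0.06 without Klf14 in the sum. The splicing factor Srsf11 was at 107 against 62.0 FPKM (ratio 1.72, interval 1.49 to 1.98), whereas Srsf4, Srsf7 and Srrm1 had ratios of 0.770, 0.785 and 0.809.

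H19 and Meg3 were at or near 0 in both libraries. H19 had 1 read with Ad-KLF14, or 0.0343 FPKM, and 0 with Ad-GFP. For its implied length of 2615 bases, a floor of 3 reads would be worth 0.103 FPKM with Ad-KLF14 and 0.101 FPKM with Ad-GFP. This floor is not an upper bound: from 1 read, the Poisson interval of H19 with Ad-KLF14 reached 0.191 FPKM. Meg3 was at 0 in both, and 3 reads over its longest GENCODE transcript would be worth 0.0185 FPKM with Ad-KLF14 and 0.0182 FPKM with Ad-GFP. No fold is given for either, since both libraries were under that floor. Among the genes beside them, Mrpl23 next to H19 averaged 1 FPKM or more. It was at 2.31 FPKM with Ad-KLF14 and 3.19 FPKM with Ad-GFP (ratio 0.725, interval 0.181 to 2.65). The others, named next, were under 1 FPKM in both libraries. Igf2, the paternally expressed growth factor beside H19, was at 0.711 FPKM with Ad-KLF14, from 32 reads, and 0.153 FPKM with Ad-GFP, from 7 reads (ratio 4.64, interval 2.01 to 12.4). Dlk1, Rtl1 and Mirg near Meg3 were at 0 in both, and Rian was at 0.0250 FPKM from 1 read with Ad-KLF14 and at 0 with Ad-GFP.

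The list of imprinted genes, which includes these neighbours except Mrpl23, holds 27, of which 14 averaged 1 FPKM or more. On the log2 scale 3 of the 14 passed 2-fold upward (21.4%, beside 6.37% of all genes) and 2 downward (14.3%, beside 8.99%). The median was 0.20, and was 0.03 over genes averaging 5 FPKM or more, 0.04 with no filter and 0.08 with a pseudocount of 5 FPKM. Peg3, a zinc finger gene expressed from the paternal chromosome, was at 4.51 against 0.220 FPKM (222 against 11 reads, 20.5-fold, interval 11.2 to 41.6). Peg3 was under 1 FPKM with Ad-GFP and passed the filter through its Ad-KLF14 value. The share of 21.4% thus depends in part on the filter, and its difference from 6.37% was not tested. The cell cycle inhibitor Cdkn1c was at 14.8 against 3.0 FPKM (4.92-fold, interval 3.36 to 7.39), and Impact, named after its values were seen, at 12.8 against 4.61 FPKM (2.78-fold). Gnas, the stimulatory G protein, was at 88.9 against 259 FPKM (2.92-fold lower) and Dio3, which inactivates thyroid hormone, at 4.90 against 15.1 FPKM (3.09-fold lower). Dio3 lies in the same imprinted cluster as Meg3, which had no read. Of 10 genes of fetal liver and their repressor, 5 averaged 1 FPKM or more and none of these was 2-fold apart on log2(FPKM + 1). The chromatin protein gene Hmga2 was at 4.62 against 9.53 FPKM, Igf2bp2 at 23.8 against 16.1 FPKM, Afp at 4.73 against 5.42 FPKM, and Zhx2, which represses Afp and H19 in mouse liver after birth, at 8.24 against 12.4 FPKM (ratio 0.667, interval 0.587 to 0.758). Lin28b, a repressor of let-7 maturation whose mean was under the filter and which is named after its values were seen, was at 1.01 against 0.131 FPKM (61 against 8 reads, ratio 7.73, interval 3.69 to 18.7), the highest FPKM ratio of the list.

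Read against all genes, none of the 6 measured noncoding RNAs was 2-fold apart on log2(FPKM + 1), where of 12419 genes 6.37% passed 2-fold upward and 8.99% downward, 15.4% in all. At 1.5-fold, 2 of the 6 were higher (Snhg1 and Snhg5) and 0 lower. Of all genes 16.7% were higher and 20.9% lower at this limit, 37.7% in all. Neat1 missed the limit only on log2(FPKM + 1), where it was at −0.56, since its FPKM was 1.58-fold lower. The median log2 ratio of the 6 was 0.37, beside −0.03 for all genes kept. Both directions occurred, with 4 above 0 and 2 below, and 48.3% of all genes were above 0. Genes that the tables type as miscRNA, as 7 of the 8 are typed, had a median of 0.02 over 546 kept genes, with 6.78% past 2-fold upward and 6.04% downward.

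**Figure D3:**
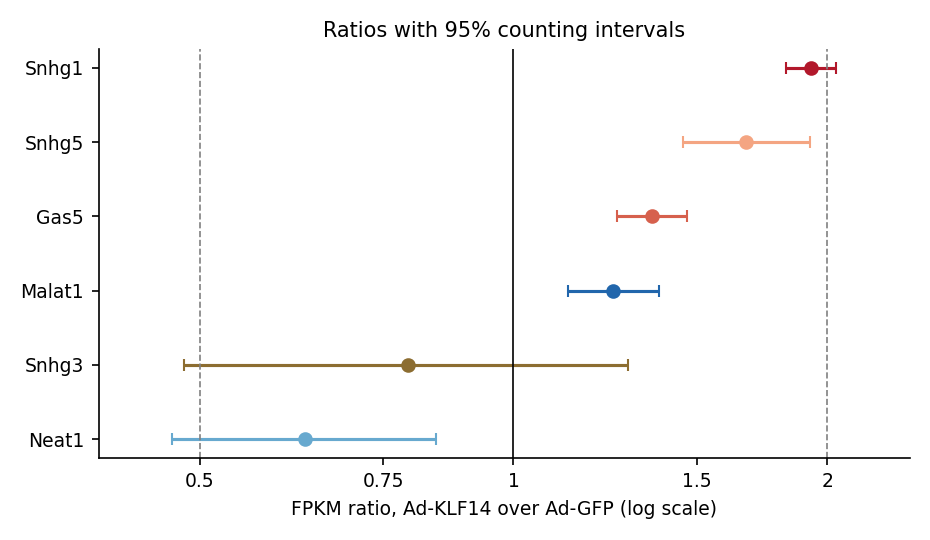
FPKM ratio of Ad-KLF14 over Ad-GFP on a log scale (horizontal) for 6 noncoding RNAs (points) with exact 95% counting intervals (bars), and dashed lines at 2-fold in either direction. The intervals of Snhg1, Snhg5, Gas5 and Malat1 lie above 1, that of Neat1 below 1, and that of Snhg3 holds 1.

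**Figure D4:**
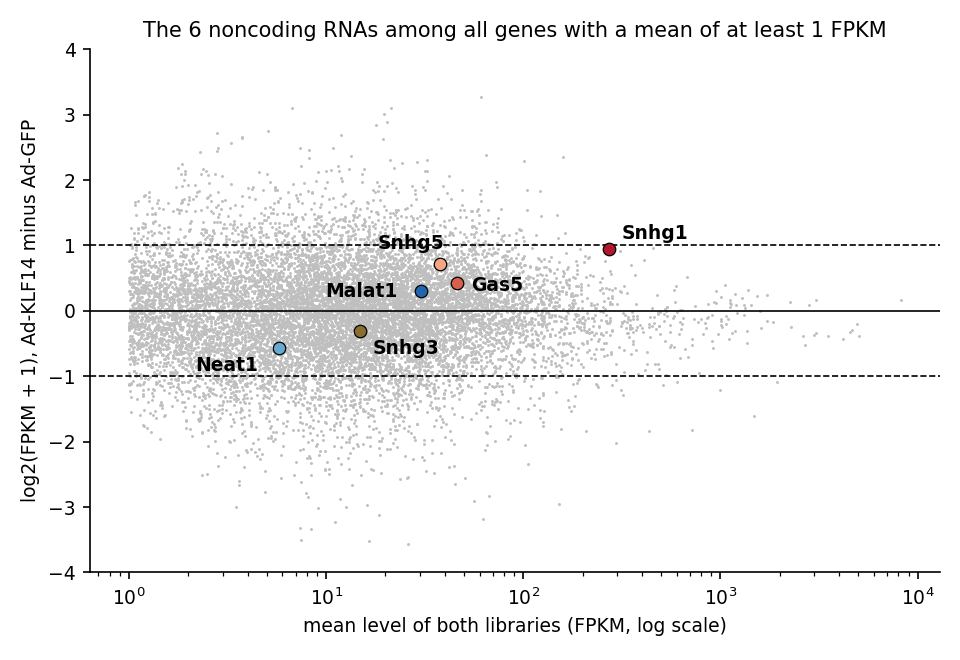
Difference in log2(FPKM + 1), Ad-KLF14 minus Ad-GFP (vertical), against the mean level in FPKM on a log scale (horizontal) for genes averaging 1 FPKM or more (grey) and 6 noncoding RNAs (coloured). Klf14 and 1 other gene lie outside the axis of ±4, and the coloured points lie between the dashed lines at 2-fold.

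Other host genes without a known protein product were mostly above 0 on the log2 scale, as Snhg1 was. Of 15 listed, 13 had a row and 10 averaged 1 FPKM or more. Of these 8 were above 0 and 2 below, none was 2-fold apart on log2(FPKM + 1), and the median log2 ratio was 0.35. Zfas1 was at 192 against 125 FPKM (ratio 1.53, interval 1.45 to 1.62) and Snhg16 at 10.4 against 7.04 FPKM (ratio 1.48, interval 1.15 to 1.92). Snhg7 was at 6.28 against 3.10 FPKM, a ratio of 2.03 from at least 2 reads and 1 read, lower limits that give an interval of 0.106 to 120. Snhg12, which lies near Snhg3 on chromosome 4 and is named after its values were seen, was at 66.7 against 51.9 FPKM (ratio 1.29, interval 1.16 to 1.42). The 2 below 0 were Snhg14, the host in the Prader-Willi region, at 3.12 against 4.60 FPKM (ratio 0.678), and Snhg20, named after its values were seen, at 4.33 against 5.75 FPKM. With the 4 hosts described above, 11 of 14 measured hosts were above 0 (78.6%, beside 48.3% of all genes kept), with a median of 0.36. Among these 11 the interval held 1 for Snhg7, for Snhg6 (0.948 to 1.29), for Snhg8 (0.544 to 3.14) and for Snhg15 (0.928 to 1.20). Below 0 it held 1 for Snhg3 and for Snhg20 (0.450 to 1.25).

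Protein-coding genes with snoRNAs in their introns were spread about 0, and their difference from the other hosts was not tested. Of 26 measured, 12 were above 0 and 14 below, and the median log2 ratio was −0.01. It turned positive under 4 of 8 alternatives, up to 0.08. This highest value came with scaling to an equal sum without Klf14, where the median of all genes kept was 0.06. The 4 furthest from 0 were Nop56 (266 against 148 FPKM, ratio 1.80), Rps12 (131 against 96.6 FPKM, ratio 1.36), Wdr43 (ratio 1.30) and Eif4a2 (ratio 1.30, interval 0.745 to 2.29). Most of this list are ribosomal protein and translation genes. The 45 protein-coding TOP mRNAs, which share the start with many hosts, had a median of −0.11, with 11 above 0 and 34 below. None was 2-fold apart. Their median was −0.02 when scaled to an equal sum without Klf14. All genes kept had a median of 0.06 under that scaling and of −0.03 as reported. Among them the translation factor genes Eef1a1 (3553 against 4811 FPKM, ratio 0.738) and Eif4b (ratio 0.706), the ribosomal protein gene Rps20 (ratio 0.745) and the histone chaperone gene Nap1l1 (ratio 0.595) were furthest from 0.

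**Figure D5:**
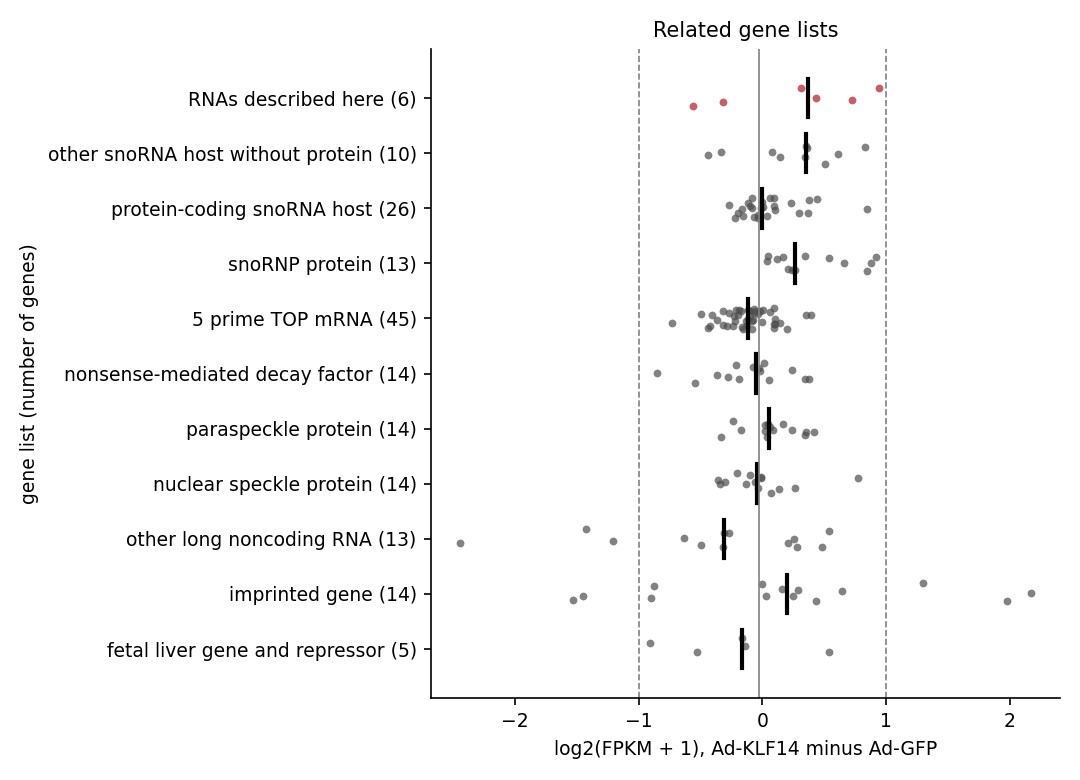
Difference in log2(FPKM + 1), Ad-KLF14 minus Ad-GFP (horizontal), for each measured gene (points) of 11 gene lists (rows, number of genes in brackets), with list medians as black bars, the median of all genes as a grey line and 2-fold as dashed lines. Host genes without a protein and snoRNP proteins have medians of 0.35 and 0.26, and the TOP mRNAs a median of −0.11.

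Proteins bind snoRNAs, modify their targets and bring them to maturity. All 13 measured snoRNP core and assembly proteins were above 0 on the log2 scale, beside 48.3% of all genes kept. None was 2-fold higher, beside 6.37% of all genes kept, and the median log2 ratio was 0.26. The list was chosen with earlier results of these data known, and its shared direction was not tested. Without Nop56 and Dkc1, which are also in the list of protein-coding hosts, 11 of 11 were above 0 with the same median. The assembly factor Shq1 was at 22.6 against 11.5 FPKM (ratio 1.97, interval 1.69 to 2.29) and Naf1, another assembly factor of the H/ACA type, at 32.3 against 17.1 FPKM (ratio 1.88, interval 1.70 to 2.09). Nop56, a core protein of the C/D type, had the ratio of 1.80 given above (interval 1.72 to 1.88), and Nhp2, a core protein of the H/ACA type, was at 159 against 100.3 FPKM (ratio 1.59, interval 1.16 to 2.19). The methyltransferase Fbl and the pseudouridine synthase Dkc1, named after their values were seen, had ratios of 1.16 (interval 0.974 to 1.39) and 1.03 (interval 0.931 to 1.14), both intervals holding 1.

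Factors of nonsense-mediated decay went both ways. Of 14 measured, 5 were above 0 and 9 below, none was 2-fold apart, and the median log2 ratio was −0.06. It was 0.03 when scaled to an equal sum without Klf14, where the median of all genes kept was 0.06. The endonuclease Smg6 was at 4.98 against 9.77 FPKM (1.96-fold lower, interval of the ratio 0.444 to 0.583) and Upf2 at 7.66 against 11.7 FPKM (ratio 0.657, interval 0.552 to 0.781). The helicase Upf1 was at 55.3 against 42.3 FPKM (ratio 1.31, interval 1.23 to 1.38), and Eif4a3, a core of the exon junction complex, at 84.7 against 110 FPKM (ratio 0.773, interval 0.699 to 0.854).

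Other long or catalytic noncoding RNAs held 3 genes past 2-fold. Of 25 listed, 21 had a row and 13 averaged 1 FPKM or more, of which 5 were above 0 and 8 below, with a median log2 ratio of −0.31, which was −0.016 with no filter on low values. The 3 that were at least 2-fold lower, 23.1% of the 13 beside 8.99% of all genes, are all transcribed by RNA polymerase III and carry no poly(A) tail. Rn7sk, the 7SK RNA that holds P-TEFb inactive, was at 189 FPKM with Ad-KLF14 and 439 FPKM with Ad-GFP, from at least 700 and 1649 reads (2.32-fold lower, interval of the ratio 0.394 to 0.471). Rpph1, the RNA of RNase P, was at 0.828 against 8.98 FPKM (at least 1 against 11 reads, ratio 0.0922, interval 0.00214 to 0.634). Rmrp, the RNA of RNase MRP, was at 0.326 against 2.57 FPKM (at least 1 against 8 reads, ratio 0.127, interval 0.00286 to 0.946). Rpph1 and Rmrp were under 1 FPKM with Ad-KLF14 and passed the filter through their Ad-GFP values. The share of 23.1% thus depends in part on the filter, and its difference from 8.99% was not tested. Among polymerase II transcripts, Oip5os1, also called Cyrano, was at 12.2 against 19.5 FPKM (ratio 0.626, interval 0.525 to 0.745). The rows typed as snoRNA had a median log2 ratio of −0.20 over 59 kept genes. How far a different carry-over of RNA without a poly(A) tail bears on Malat1 and Neat1 was not tested.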

How the data were processed

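Per the labels' protocols, hepatocyte RNA was isolated with Trizol and a TruSeq RNA kit of Illumina gave the libraries. Bowtie 0.12.2 and build mm8 are named, per the submitters' processing notes. Gene models, the counting rule, strand and the handling of multiply matching reads are not given in the sources used here. The authors deposited 1 table of FPKM values per library. Retina and triplicates in the series' design text are matched by no label.

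Library totals were computed as the commonest greatest common divisor of the inverse FPKM steps, tested on simulated data. Of genes above 0 in both libraries, 99.4% had a ratio of whole numbers under 10000 (relative tolerance 1e-11). Reads per gene are the smallest that fit, divided by up to 6 where the implied length exceeded every GENCODE M21 transcript. Differences were taken on log2(FPKM + 1) as Ad-KLF14 minus Ad-GFP, a scale that compresses low genes, and genes averaging 1 FPKM or more over both libraries were kept. Ratios of named genes are of FPKM, with exact 95% Clopper-Pearson intervals. Older symbols were matched through RefSeq synonyms (GRCm38.p6), for 19 list entries. GRCm38 annotation served for neighbours and sequences only, since the files use mm8. Some neighbouring genes are not reported here. Named are all 8 members and up to 4 genes per list with the largest absolute log2 ratio. The members and lists were chosen with earlier results of these data known. Alternatives were pseudocounts of 0.1 and 5 FPKM, 4 scalings, 2 filters and a 1.5-fold limit. Python 3.11.15, NumPy 2.4.6, pandas 2.3.3, SciPy 1.17.1 and Matplotlib 3.10.9 were used.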

Additional observations from a re-analysis of the deposited data

How the results depend on the processing

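No paired analysis was possible because each group holds 1 library, and for the same reason no replicate could be left out. The log2 ratios of Malat1, Neat1, Gas5, Snhg1, Snhg3 and Snhg5 kept their sign under each scaling tried. The filters and pseudocounts could not change a sign. A filter leaves the ratio of a gene as it is, and a pseudocount changes its size only. The ranges that follow cover scalings, pseudocounts and filters. Ranges were 0.27 to 0.40 for Malat1, −0.65 to −0.35 for Neat1, 0.40 to 0.53 for Gas5, 0.93 to 1.04 for Snhg1, −0.33 to −0.24 for Snhg3 and 0.65 to 0.82 for Snhg5. The number of the noncoding RNAs at least 2-fold higher was 0 as reported, 1 (Snhg1) when scaled to an equal sum without Klf14, and 2 with a limit of 1.5-fold. Of all genes kept, 6.37%, 9.53% and 16.7% were higher in these settings, and 8.99%, 8.91% and 20.9% lower. The number lower was 0 throughout. At 1.5-fold this rests on the pseudocount of 1 FPKM, since Neat1 was 1.58-fold lower in FPKM. That limit was not tried with the other pseudocounts. The median log2 ratio of the noncoding RNAs, 0.37, was 0.18 without a filter on low values, by construction, since H19 and Meg3 then enter near 0. It was 0.31 without Snhg5, an alternative chosen after the data were seen. Where the reads recovered are lower limits, as for Snhg3 and Snhg7, the intervals may be wider than the true reads would give.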
